A study of Mus musculus with 5 samples.

Results

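The genes described here encode subunits of the mitochondrial respiratory chain and of ATP synthase. They were chosen by gene symbol alone, as the nuclear genes of the Nduf, Sdh, Uqcr, Cox4 to Cox8 and Atp5 series that had a probe set of their own on a mouse whole-transcript array. The rule gave 76 genes of the 19938 genes measured. Of these, 34 carry names of complex I, 4 of complex II, 8 of complex III, 16 of complex IV and 14 of complex V. Ndufa4 is kept with complex I by its name, although its protein is now counted as a subunit of complex IV. Cox7c and Ndufb4 were read only by probe sets shared with other genes and were not analysed here.

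Total RNA was measured on 5 arrays, 1 for each of 5 groups. The embryonic stem cells (ESCs) were labelled as 2i and S. The fibroblasts from mouse embryos (MEFs) were labelled as control, as 2n 2i and as 4n 2i. All came from the F1 cross of 129X1/SvJ and MSM/Ms mice, so the ESCs and MEFs share their genetic background. The labels do not expand 2i, S, 2n or 4n, and name no treatment, age or sex. Each title carries a number whose meaning is not stated, 36 for S ESCs, 4 for control MEFs, 2 for 4n 2i MEFs and a shared 15 for 2i ESCs and 2n 2i MEFs.

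Complexes I to IV pass electrons from NADH and succinate to oxygen and, except for complex II, pump protons across the inner mitochondrial membrane. Complex V, the ATP synthase, uses that gradient to make ATP. Most subunits are encoded in the nucleus and imported, a few core subunits are encoded by mitochondrial DNA, and several complex IV subunits exist as isoforms that are typical of muscle, lung or testis. Pluripotent cells are known for strong glycolysis beside an assembled respiratory chain, and fibroblasts for fuller use of respiration.

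The groups matched their cell type labels. All 6 ES cell markers tested (Pou5f1, Nanog, Sox2, Zfp42, Esrrb and Tdgf1) were at or above the floor on both ESC arrays and on no MEF array, where the floor is the median intensity of an array's gene-named probe sets, between 218 and 240 intensity units. All 8 fibroblast markers were above the floor on every MEF array, and 4 or 5 of them on the ESC arrays. The 4n 2i MEF array carried 5 of 8 macrophage markers above the floor against 2 on each of the other MEF arrays. Many deposited values were the same to the last digit on several MEF arrays: 43.0% of all genes and 20 of the 76 members between the 2n 2i and the control MEFs. No value was shared between an ESC and a MEF array. The spread over MEF arrays may therefore be too small, and with it the limma standard errors and p-values given here. These are bulk RNA samples, so fewer cells of a type and less RNA per cell cannot be told apart.

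Most subunit genes were bright and varied little across the 5 arrays. Of the 76, 73 reached the floor on at least 1 array, and the exceptions were the isoform genes Cox7b2, Cox8b and Cox8c. Over the 73, the gap between the highest and the lowest array was 0.49 at the median on the log2 scale, against 1.06 over the 11855 genes that passed the same floor. For 66 of the 73 the gap was under 1 (90.4%), against 47.1% of all genes.

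**Figure D1:**
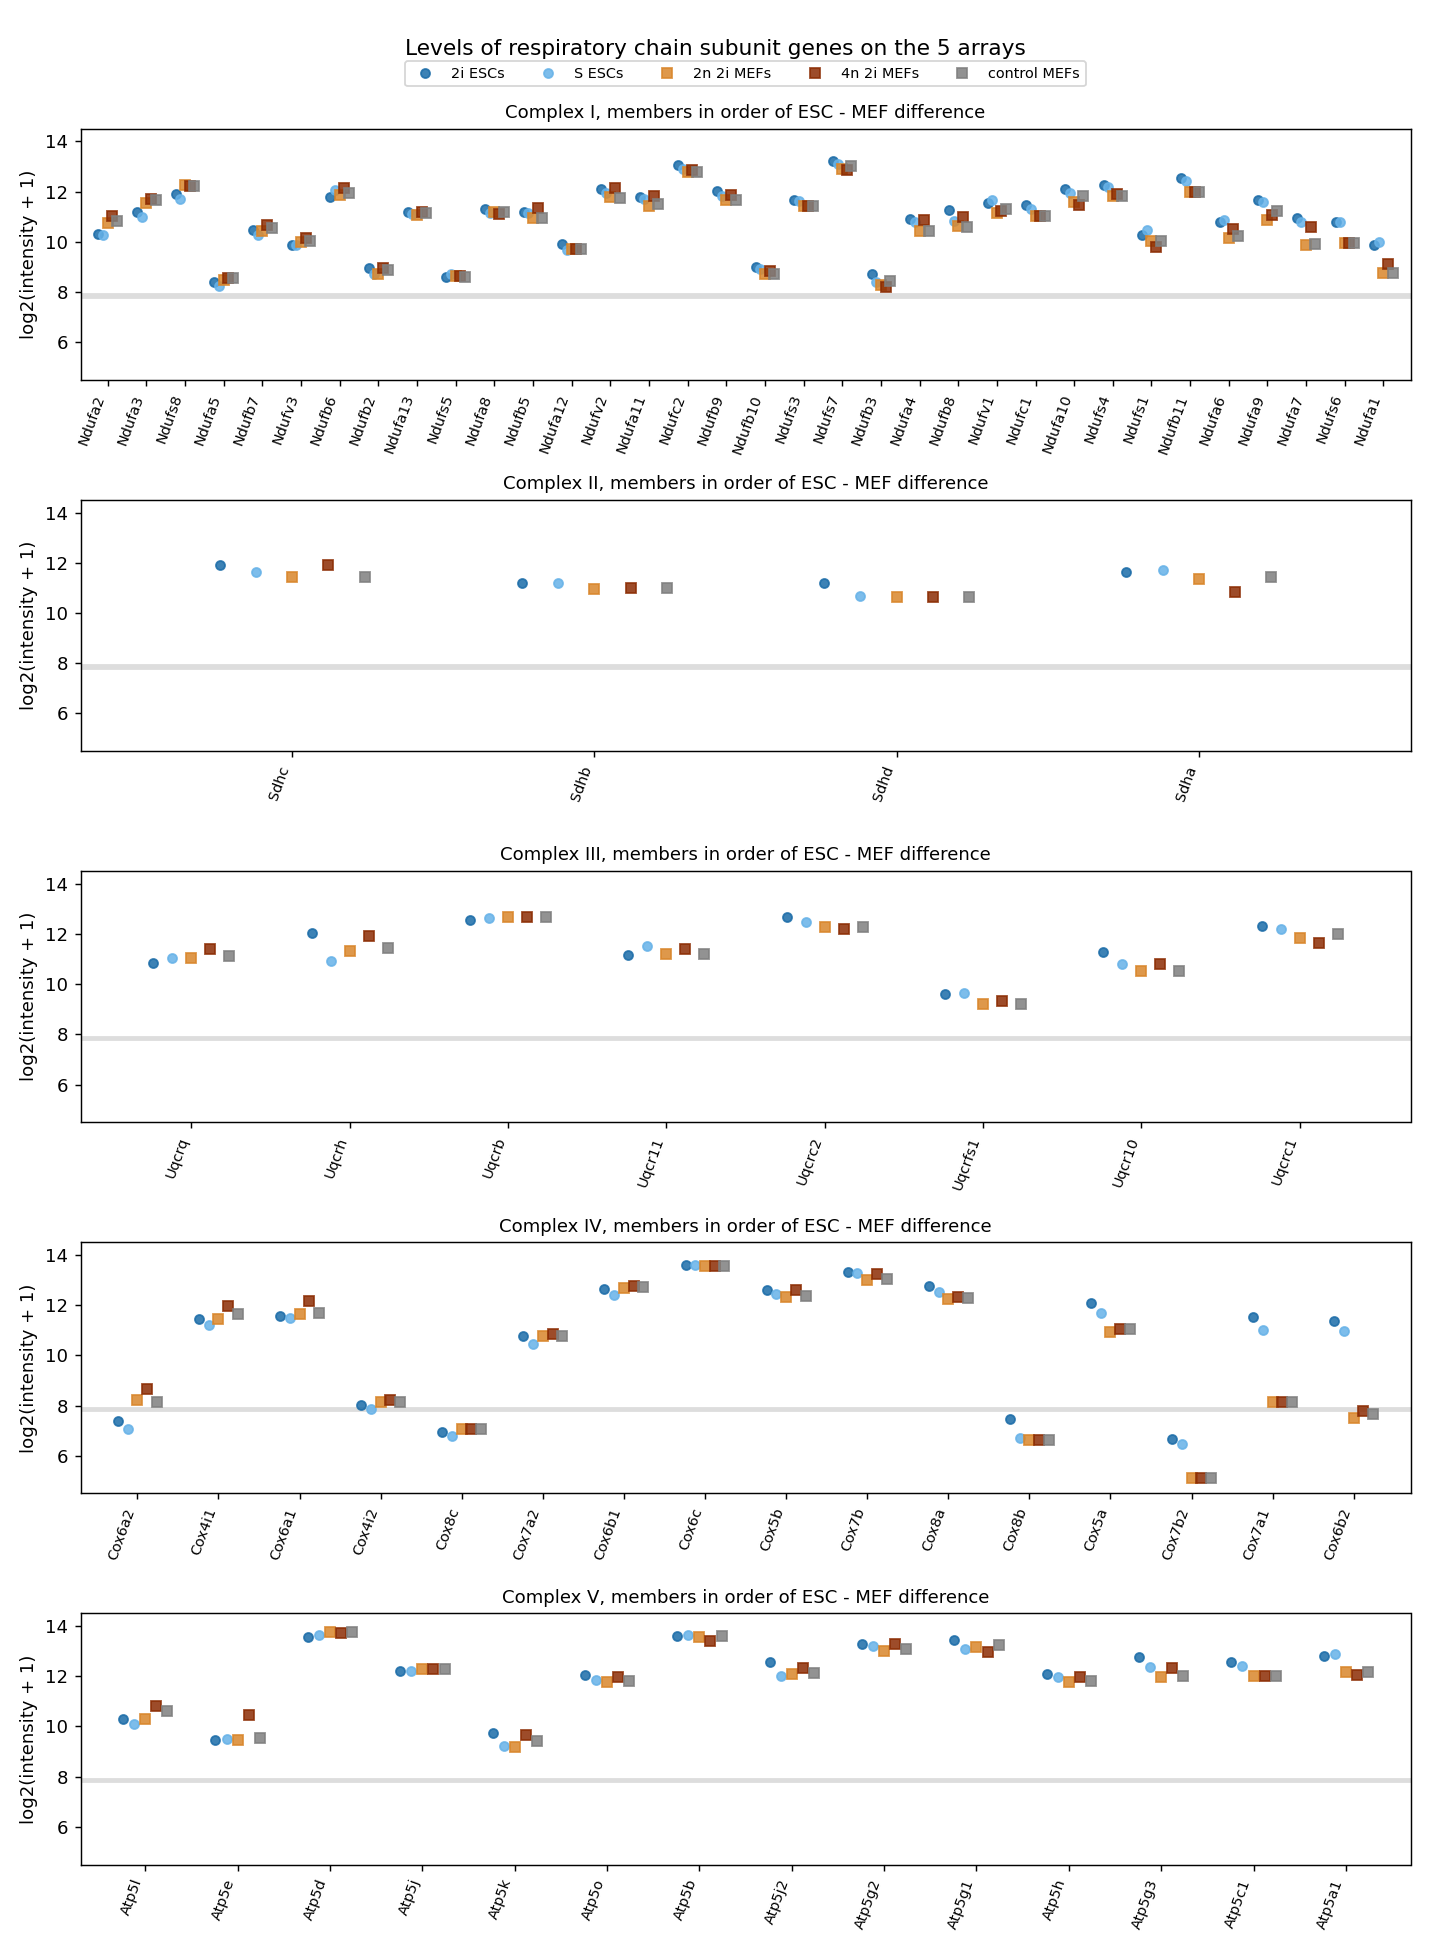
Level of each of the 76 genes on each array as log2(intensity + 1), in 5 panels by complex, with genes in order of the difference between ESCs and MEFs. Circles are ESC arrays, squares are MEF arrays and the grey band spans the floors of the arrays. Cox6b2 and Cox7a1 stand far apart between cell types, while most genes lie above the floor with their 5 points close together.

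The first comparison was of the ESC arrays with the MEF arrays, in which the groups of 1 array each are pooled by cell type. A gene was called when limma gave an adjusted p under 0.05 over all 11855 genes (Benjamini-Hochberg) and a difference of at least 2-fold. Cox6b2, Cox7a1 and Ndufa1 were called higher in ESCs, and 16.6% of all genes were called higher. Cox6a2 was called lower in ESCs, against 16.2% of all genes. Cox6b2 and Cox6a2 reached the floor in 1 cell type only, so they could enter the fit only through the cell type in which they were high. The p-values measure the spread between arrays of different groups within a cell type, since no group has a replicate.

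Without the fold threshold, 17 members (23.3%) passed the adjusted p in the direction of ESCs, against 31.0% of all genes. In the direction of MEFs 4 members (5.48%) passed, against 26.9% of all genes. The other 52 did not pass. With no floor, 23 of 76 members (30.3%) passed as higher, against 30.2% of all genes, and 6 (7.89%) as lower, against 22.5%. The first count was 7 without the 2n 2i MEF array and 8 without the control MEF array, with 23.3% and 23.7% of all genes passing, and the second was 8 without the 2i ESC array (21.4% of all genes) and 2 without the control MEF array (21.7%). The median difference of the 73 members, ESCs minus MEFs, was 0.16 on the log2 scale beside 0.06 for all genes. That median was 0.087 without the 2i ESC array.

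By arrays rather than by test, both ESC values lay above all 3 MEF values for 32 members (41.6% of all genes did so) and below them for 14 (36.2% of all genes). The remaining 27 members overlapped. Positive differences were found for 51 members and negative ones for 22. Of all 11855 genes, 6225 had positive differences and 5630 negative ones.

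**Figure D2:**
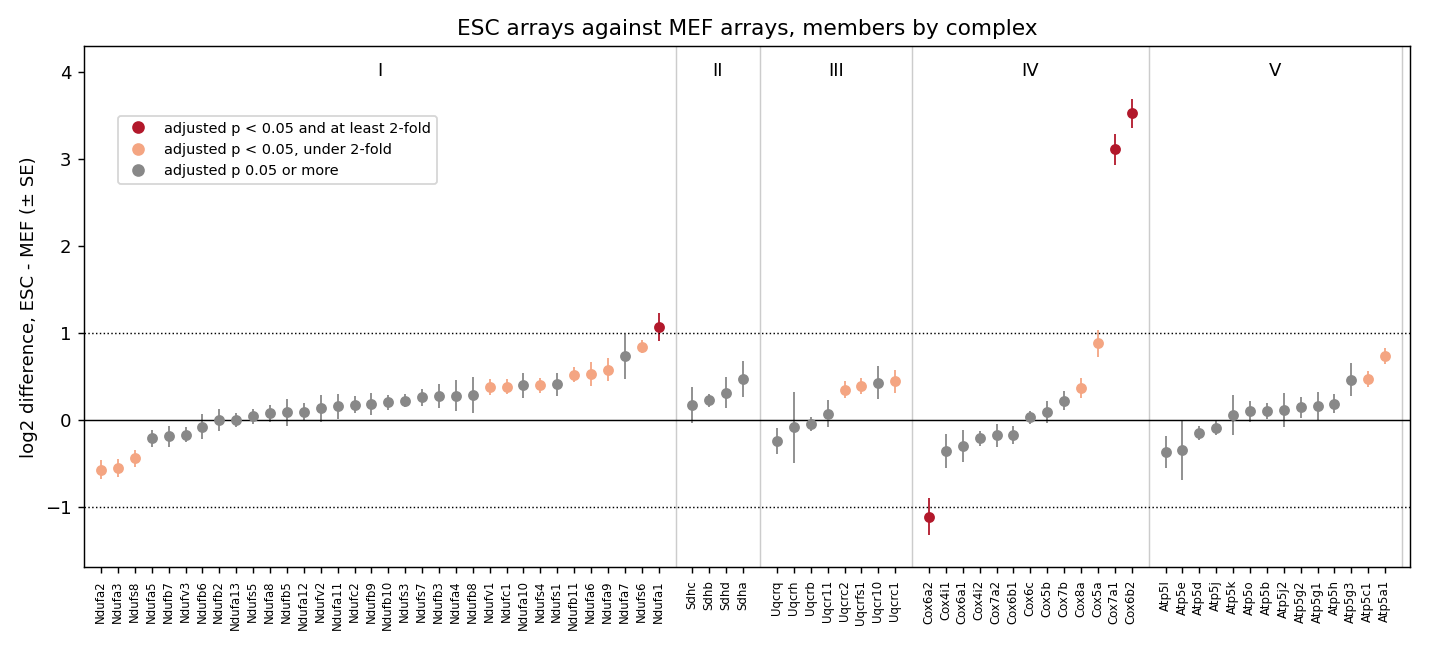
Log2 difference between the mean of the 2 ESC arrays and the mean of the 3 MEF arrays for the 73 tested members, by complex, with bars of 1 standard error from limma. Dotted lines mark 2-fold. Dark red points passed the adjusted p and the fold threshold, light points passed the adjusted p only, and grey points did not pass; 3 dark points lie above the upper line and 1 below the lower line.

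Complex I takes electrons from NADH, and 25 of its 34 genes were higher in the ESC mean (median difference 0.19, or 0.11 without the 2i ESCs). Among all 11855 genes, 6225 were higher in that mean. Ndufa1, an X-linked accessory subunit needed for assembly of the membrane arm, had intensities of 939 and 1032 on the 2i and S ESC arrays and of 430, 563 and 432 on the 2n 2i, 4n 2i and control MEF arrays. The groups did not overlap, and the 4n 2i array was the highest of the MEF arrays. The difference was 1.06 ± 0.16 on the log2 scale (SE, n = 2 and 3 arrays; limma adjusted p = 0.0061). Among the 5 ways of leaving out 1 array, Ndufa1 kept the call only without the 4n 2i MEF array. Without the 2i or the S ESC array its adjusted p was 0.0506 and 0.0641, and without either of the other MEF arrays it was just under 2-fold.

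Ndufs6, a zinc-binding accessory subunit, had intensities of 1777 and 1750 in 2i and S ESCs and the same value of 986 on all 3 MEF arrays. It was 0.84 higher in ESCs (SE 0.08, limma adjusted p = 0.0015). Its error therefore rests on the ESC arrays and on the variance that limma shares across genes. Ndufa9 (0.57), Ndufa6 (0.52), Ndufb11 (0.52), Ndufs4 (0.40), Ndufc1 (0.38) and the core subunit Ndufv1 (0.38), which binds NADH, also passed the adjusted p below 2-fold. Ndufa6 lost that pass in 4 of the 5 leave-outs, all but the one of the 4n 2i MEFs, with adjusted p up to 0.166, and Ndufa9 in 3, with adjusted p up to 0.120. Ndufv1 lost it in 4 and Ndufs4 and Ndufc1 in 2, so that the 8 passes of complex I as higher were 3 without the 2n 2i MEFs and 4 without the control MEFs.

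Ndufa7, another accessory subunit, gave a result that turned on 1 array. Its intensities were 1992 and 1753 in the 2i and S ESCs, 948 in the 2n 2i MEFs, 977 in the control MEFs and 1550 in the 4n 2i MEFs. The ESC values were above all MEF values, but the 4n 2i array lay much nearer to the ESCs than to the other MEFs. With all arrays the difference was 0.73 with a limma adjusted p of 0.069, and without the 4n 2i array it was 0.96 with 0.0068.

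Lower values in ESCs were found for 9 complex I genes, of which 3 passed the adjusted p. Passes as higher made up 23.5% and passes as lower 8.82% of the 34 genes, against 31.0% and 26.9% of all genes. The accessory subunit Ndufa3 had intensities of 2319 and 2023 in 2i and S ESCs against 3029, 3316 and 3225 in 2n 2i, 4n 2i and control MEFs, a difference of -0.56 (SE 0.10, limma adjusted p = 0.011). Ndufa2 (-0.57) and Ndufs8 (-0.44), a core subunit with iron-sulfur clusters, were below the MEF values on both ESC arrays too. All 3 passes were lost in at least 1 leave-out: without either ESC array for Ndufa2 (adjusted p = 0.0668 and 0.0758), without the control MEFs for Ndufa3 (0.0503) and without the 2n 2i or control MEFs for Ndufs8 (0.0742 and 0.0695). The core subunits did not all share a sign. Ndufv1 passed as higher, Ndufs8 as lower, and Ndufs1 (0.41), Ndufs3 (0.22), Ndufs7 (0.26) and Ndufv2 (0.13) had positive differences that did not pass.

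Complex II, succinate dehydrogenase, joins the citric acid cycle to the chain, and none of its 4 genes passed the adjusted p with all arrays. Without the 2i ESCs the difference of Sdhb was 0.21. Without the S ESCs it was 0.24 for Sdhb and 0.57 for Sdhd. These fits hold 1 ESC array, and Sdhd has the same value on all 3 MEF arrays, which leaves it no spread of its own. All 4 were higher in the ESC mean, from 0.17 for the membrane anchor Sdhc to 0.47 for the flavoprotein Sdha. So were 6225 of all 11855 genes. Sdha had intensities of 3168 and 3352 in 2i and S ESCs, 2598 in 2n 2i MEFs, 1835 in 4n 2i MEFs and 2734 in control MEFs. The ESC values were above all the MEF values, and the 4n 2i array was the lowest of the 5.

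Complex III, the cytochrome bc1 complex, had 3 of 8 genes (37.5%) past the adjusted p, all higher in ESCs and below 2-fold, a share near the 31.0% of all genes. These were the core protein genes Uqcrc1 (0.44) and Uqcrc2 (0.35) and Uqcrfs1 (0.39), which encodes the Rieske iron-sulfur protein. Uqcrc1 had intensities of 5161 and 4698 in 2i and S ESCs and of 3629, 3227 and 4057 in 2n 2i, 4n 2i and control MEFs. The small subunits Uqcrb, Uqcrh, Uqcrq, Uqcr10 and Uqcr11 did not pass, with differences between -0.24 (Uqcrq) and 0.42 (Uqcr10). The 3 passes were weak: Uqcrc1 lost its pass when any of the 5 arrays was left out and Uqcrc2 and Uqcrfs1 in 3 of the 5 leave-outs, and none of the 3 passed without the 2n 2i or without the control MEFs.

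Complex IV, cytochrome c oxidase, held the 2 largest differences of all members, and both were isoform genes that are known from particular tissues. It had 4 of 13 tested genes past the adjusted p as higher (30.8%, against 31.0% of all genes) and 1 as lower (7.69%, against 26.9%). Cox6b2, known as the testis isoform of a subunit that faces the intermembrane space, had intensities of 2637 and 1998 in 2i and S ESCs and of 181, 218 and 199 in 2n 2i, 4n 2i and control MEFs. All 3 MEF values lay below their arrays' floors. Against those floors the ESC mean was at least 10.1-fold higher, or at least 3.34 on the log2 scale. The deposited values themselves differed by 3.52 ± 0.16 (SE, n = 2 and 3; limma adjusted p = 0.00037).

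Cox7a1, known as the heart and skeletal muscle isoform, had intensities of 2958 and 2061 in 2i and S ESCs and the same value of 285 on all 3 MEF arrays. The ESC values were many times the MEF value, and the 2i ESC array was the higher of the ESC arrays. The difference was 3.11 ± 0.18 (SE, n = 2 and 3; 8.64-fold; limma adjusted p = 0.00054). Cox6b2 kept its call in all 12 alternative fits and Cox7a1 in the 11 that could hold it. For Cox7a1 the fits without 1 of the ESC arrays say nothing on stability, since 1 ESC value and identical MEF values leave it no spread of its own. Of 8 striated muscle markers (Des, Myog, Myod1, Actc1, Ckm, Tnnt2, Myh3 and Actn2), 3 were above the floor on each ESC array and 2 or 3 on the MEF arrays. Their summed intensity was 1628 and 1951 in 2i and S ESCs and 2067, 2980 and 1625 in 2n 2i, 4n 2i and control MEFs. Single markers differed in direction. Actn2 passed as higher in ESCs (0.98 in the deposited values, limma adjusted p = 0.0020), with the same value under the floor on all MEF arrays. It entered the fit only through the ESC arrays, at 293 and 254 in 2i and S ESCs beside floors of 240 and 239. A difference of that size rests on MEF values under the floor. Tnnt2 was called lower (-1.12, limma adjusted p = 0.016). Des and Actc1 did not pass, and Myog, Myod1, Ckm and Myh3 were under the floor on every array.

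Cox6a2, the muscle partner of Cox6a1, reached the floor on the MEF arrays only. Its intensities were 166 and 132 in 2i and S ESCs, both below the floor, and 296, 405 and 279 in 2n 2i, 4n 2i and control MEFs, all above it. Against the ESC floors the MEF mean was at least 1.34-fold higher, so a 2-fold difference rests on ESC values under the floor. The deposited values differed by -1.11 ± 0.22 (SE, n = 2 and 3; limma adjusted p = 0.012). The call was lost without the 2i ESCs (adjusted p = 0.0644), without the S ESCs (0.108) and without the 4n 2i MEFs, where the difference of -0.95 was under 2-fold.

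The broadly expressed counterparts of these isoforms differed much less. Cox6b1 was lower in ESCs by 0.17, Cox7a2 by 0.18 and Cox6a1 by 0.30, and none passed the adjusted p (values from -0.17 to -0.30 for ESCs minus MEFs; limma adjusted p = 0.217, 0.276 and 0.226). Without the 2i ESCs the differences of Cox6b1 and Cox7a2 were -0.29 and -0.34, in a fit with 1 ESC array. The log2 ratio of Cox6b2 to Cox6b1 within an array was -1.30 and -1.46 on the ESC arrays and between -5.18 and -4.97 on the MEF arrays, where Cox6b2 was under the floor. The ratio of Cox7a1 to Cox7a2 was 0.76 and 0.57 on the ESC arrays and between -2.68 and -2.60 on the MEF arrays. Neither ratio overlapped between the cell types. For each, the exact two-sided permutation p was 0.2, the smallest that 2 against 3 arrays can give here (0.36 after adjustment over 9 isoform pairs).

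The other isoform pairs showed smaller shifts in the ratio, ESCs minus MEFs. Cox6a2 to Cox6a1 shifted by -0.81 with Cox6a2 under the floor in ESCs, Cox4i2 (an isoform known from lung and low oxygen) to Cox4i1 by 0.14, Atp5g2 to Atp5g1 by -0.01 and Atp5g3 to Atp5g1 by 0.31. Cox7b2 to Cox7b shifted by 1.23, Cox8c to Cox8a by -0.56 and Cox8b to Cox8a by 0.10, with the first gene of each under the floor on every array. The exact permutation p was 0.2 for Cox6a2, Cox7b2 and Cox8c and between 0.6 and 1 for the rest.

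**Figure D3:**
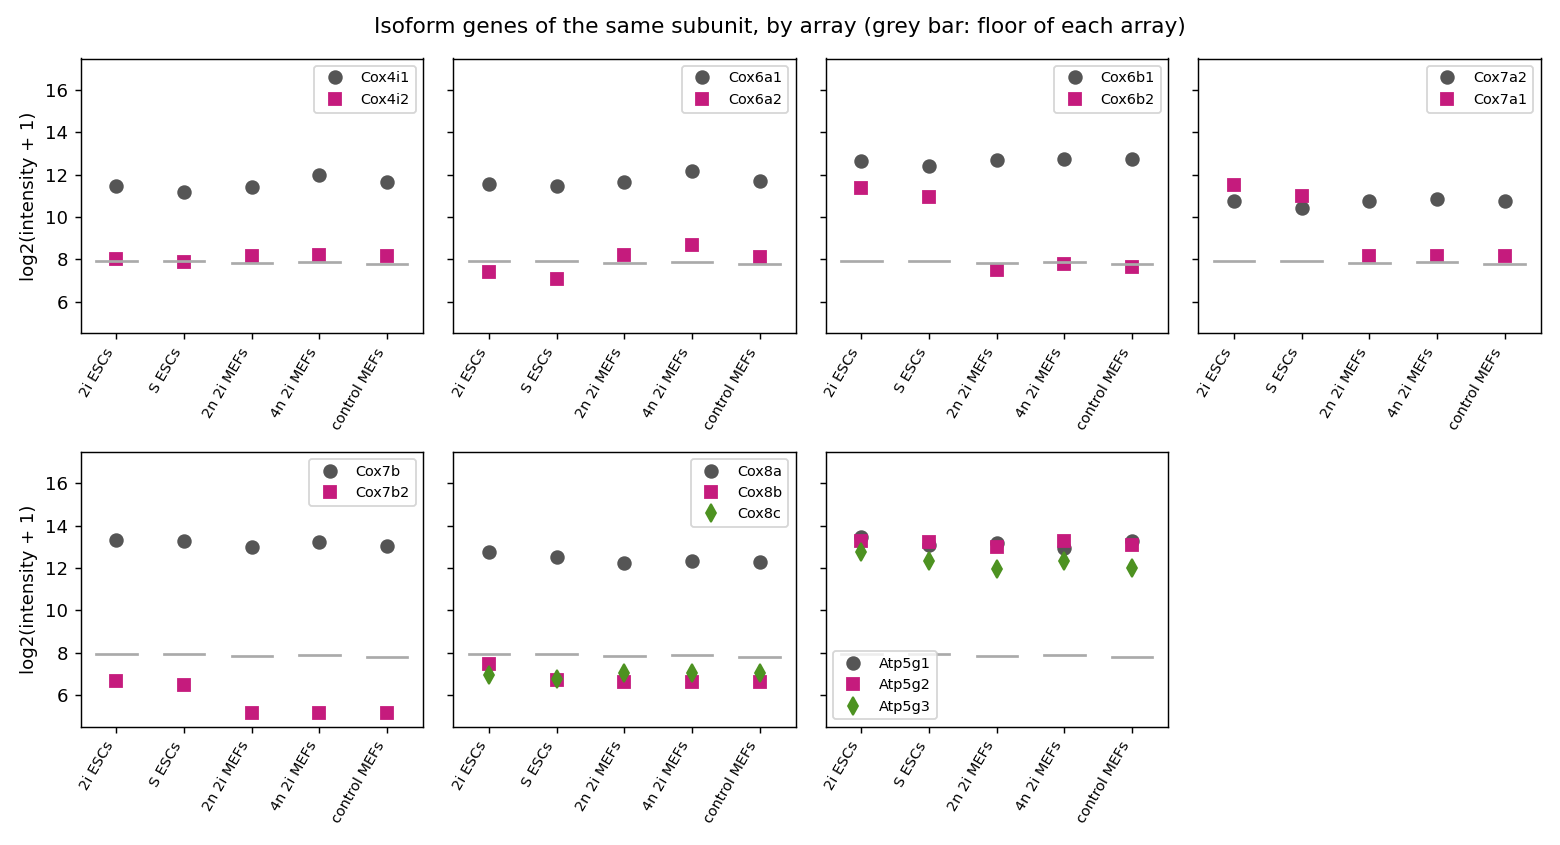
Log2(intensity + 1) of isoform genes of the same subunit on each of the 5 arrays, 1 point per array, with a grey bar at each array's floor. Cox6b2 and Cox7a1 lie near the floor on the MEF arrays and between 10.97 and 11.53 on the ESC arrays, while Cox6b1 and Cox7a2 differ between cell types by -0.17 and -0.18.

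The upstream DNA of these isoform pairs is shown here because they carry the largest differences, and because the members of a pair differ in it. Each line gives the 250 bases before the RefSeq transcript start (assembly GRCm38.p6) in the direction of transcription, with CpG dinucleotides in capitals.
Cox7a1 (chr7:30183921-30184170, + strand, 4 CpG): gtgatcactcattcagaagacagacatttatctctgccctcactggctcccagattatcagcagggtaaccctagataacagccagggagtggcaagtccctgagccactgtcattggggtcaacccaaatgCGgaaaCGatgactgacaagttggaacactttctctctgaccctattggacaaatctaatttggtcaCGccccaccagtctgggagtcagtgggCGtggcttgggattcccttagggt
Cox7a2 (chr9:79759854-79760103, - strand, 14 CpG): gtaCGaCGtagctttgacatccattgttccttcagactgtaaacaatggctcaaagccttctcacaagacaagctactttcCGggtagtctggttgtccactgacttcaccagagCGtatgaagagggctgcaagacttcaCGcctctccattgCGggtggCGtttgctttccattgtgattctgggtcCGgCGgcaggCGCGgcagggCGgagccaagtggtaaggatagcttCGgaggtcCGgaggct
Cox6b2 (chr7:4753095-4753344, - strand, 8 CpG): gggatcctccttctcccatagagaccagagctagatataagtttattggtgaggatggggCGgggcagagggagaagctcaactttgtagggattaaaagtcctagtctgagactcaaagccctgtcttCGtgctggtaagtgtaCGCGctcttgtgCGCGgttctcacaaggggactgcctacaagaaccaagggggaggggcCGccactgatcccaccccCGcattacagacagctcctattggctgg
Cox6b1 (chr7:30626115-30626364, - strand, 14 CpG): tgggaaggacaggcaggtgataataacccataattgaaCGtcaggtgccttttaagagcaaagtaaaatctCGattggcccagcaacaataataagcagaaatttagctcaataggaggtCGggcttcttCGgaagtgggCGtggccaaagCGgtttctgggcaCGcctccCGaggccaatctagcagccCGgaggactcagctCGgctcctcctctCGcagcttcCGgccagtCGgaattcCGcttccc
Both isoforms called higher in ESCs had fewer CpG dinucleotides in this window than their broadly expressed counterparts. Other pairs did not all share that order or the difference in level. Cox7b2 had 9 against 5 for Cox7b, and Cox8b had 1 against 11 for Cox8a. Ndufa1, also called higher in ESCs, had 25. Whether CpG content has a part in the differences was not tested. The median was 14 over the 68 windows of the 63 members that the table holds, 6 over all 32851 windows in the table and 10 over those of protein-coding genes. The arrays hold no measure of DNA methylation or of protein binding at these windows.

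Among the remaining complex IV genes, the matrix-facing subunit Cox5a had intensities of 4341 and 3258 in 2i and S ESCs and of 1963, 2090 and 2090 in 2n 2i, 4n 2i and control MEFs. The ESC values stood clear of the MEF values, and the 4n 2i and control MEFs carried the same deposited value. The difference was 0.88 ± 0.15 (SE, n = 2 and 3, limma adjusted p = 0.0087), which is under 2-fold. Without the S ESCs it was 1.08, in a fit with 1 ESC array. Cox8a passed at 0.37 (limma adjusted p = 0.048), a pass lost without any 1 of the MEF arrays. Cox4i1, Cox4i2, Cox5b, Cox6a1, Cox6b1, Cox6c, Cox7a2 and Cox7b did not pass, with differences between -0.36 and 0.22. Without the 2i ESCs that of Cox4i2 was -0.28, in a fit with 1 ESC array.

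In complex V the catalytic F1 head and its stalk gave the 2 passes among 14 genes (14.3%, against 31.0% of all genes as higher). Atp5a1, the alpha subunit, had intensities of 7220 and 7590 in 2i and S ESCs and of 4585, 4190 and 4572 in 2n 2i, 4n 2i and control MEFs. The difference was 0.74 ± 0.09 (SE, n = 2 and 3; limma adjusted p = 0.0034). Atp5c1, the gamma subunit that turns within the head, was higher in ESCs by 0.47 (limma adjusted p = 0.013), a pass lost without the 2n 2i or the control MEFs.

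The partner of the alpha subunit did not follow it. Atp5b, the catalytic beta subunit, overlapped between ESCs (12430 and 12915) and MEFs (12049, 10984 and 12475), with a difference of 0.10 (limma adjusted p = 0.409). The delta subunit Atp5d (-0.16) and the epsilon subunit Atp5e (-0.35) had negative differences that did not pass. Without the 2i or the S ESC array the difference was -0.12 and -0.20 for Atp5d. For Atp5j, which has the same value on all MEF arrays, it was -0.09 and -0.10. The complex's median of 0.11 was -0.02 without the 2i ESCs and 0.22 without the S ESCs. The genes Atp5g1, Atp5g2 and Atp5g3, which encode the same mature ring subunit c, had differences of 0.15, 0.14 and 0.46, none of which passed.

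The X-linked members are Ndufa1, Ndufb11 and Cox7b, and all 3 were higher on both ESC arrays than on any MEF array. Of all genes 41.6% were, and of 407 tested X-linked genes 53.3%, whose median difference was 0.49. Ndufb11 had intensities of 6032 and 5498 in 2i and S ESCs and the same value of 4023 on all MEF arrays (difference 0.52, limma adjusted p = 0.0079). Cox7b differed by 0.22 and did not pass. Between 2i and S ESCs the X-linked members differed by -0.14 (Ndufa1), 0.05 (Cox7b) and 0.13 (Ndufb11), beside a median of 0.29 over the 367 X-linked genes compared and 0.15 over the autosomal members.

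The second comparison set the 2i ESCs against the S ESCs, with 1 array each and therefore no test. Of the 72 members compared, Uqcrh was at least 2-fold higher in 2i ESCs (2.78% of 10493 genes were) and none was at least 2-fold lower (2.54% of genes were). Small differences leaned to the 2i ESCs: 55 members were higher there and 17 lower, or 76.4% higher against 45.0% of all genes. The median was 0.14 for the members and -0.04 for all genes. By complex, 28 of 34 genes of complex I, 3 of 4 of II, 4 of 8 of III, 11 of 12 of IV and 9 of 14 of V were higher in 2i ESCs.

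Uqcrh, the hinge protein of complex III that helps cytochrome c dock, had intensities of 4222 in 2i ESCs and 1918 in S ESCs, and of 2534, 3917 and 2768 in 2n 2i, 4n 2i and control MEFs. The S ESC array was the lowest and the 2i ESC array the highest, with the 4n 2i MEFs close to the latter. The log2 difference of 2i minus S ESCs was 1.14. The next largest were 0.54 for Atp5j2, 0.52 for Sdhd and 0.52 for Cox7a1, and the most negative were -0.39 for Uqcr11 and -0.29 for Ndufb6.

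The remaining comparisons were among the MEFs, again with 1 array each and no test. They share the control and 2n 2i arrays, so their values are given side by side and not as separate evidence. None of the 72 members compared was 2-fold apart in any of them. Over all genes, a 2-fold threshold was passed as higher by 1.48% and as lower by 0.434% in 2n 2i than in control MEFs, by 5.26% and 3.44% in 4n 2i than in control MEFs, and by 3.34% and 2.36% in 4n 2i than in 2n 2i MEFs.

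Between 2n 2i and control MEFs, 9 members were higher, 46 lower and 17 had the same deposited value. The differences ran from -0.34 (Ndufa9) to 0.09 (Cox6a2), with a median of -0.03 beside 0.00 for all genes. Of all genes, 44.8% were higher, 34.6% lower and 20.6% the same. The members thus leaned to the lower side, by very small amounts.

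On the 4n 2i array, 45 members were higher than on the control array, 15 lower and 12 the same, with a median of 0.09. Of all genes 36.1% were higher, 51.5% lower and 12.3% the same, with a median of -0.01. Against the 2n 2i array 49 members were higher, 13 lower and 10 the same, with a median of 0.11. For all genes these shares were 33.3%, 54.8% and 11.9%, with a median of -0.04. Of the 73 members, 45 (61.6%) were higher on the 4n 2i array than on both of the other MEF arrays, against 27.7% of all genes, and 12 (16.4%) were lower than on both, against 43.4% of all genes.

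The members furthest from the other MEF arrays on the 4n 2i array came from several complexes. Atp5e, the epsilon subunit of ATP synthase, had intensities of 705, 1403 and 754 in 2n 2i, 4n 2i and control MEFs, beside 704 and 718 in 2i and S ESCs. The 4n 2i array stood alone above the other 4 arrays, which lay close together. The log2 difference was 0.90 to control and 0.99 to 2n 2i MEFs. Ndufa7 (0.66 to control MEFs), Cox6a2 (0.54), Uqcrh (0.50), Sdhc (0.48) and Cox6a1 (0.47) followed.

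On the low side, Sdha differed from control MEFs by -0.58 and from 2n 2i MEFs by -0.50. Next to it against control MEFs were Ndufa10 (-0.35), Uqcrc1 (-0.33), Atp5g1 (-0.30), Ndufs1 (-0.26) and Ndufb3 (-0.21). The subunits of complex II were split on this array, with Sdha lower than on the other MEF arrays, Sdhc higher, Sdhd at the same value and Sdhb between them.

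Other gene lists also differed among the MEF arrays, given here as values. The summed intensity of the 8 macrophage markers was 12405 in 4n 2i, 1338 in 2n 2i and 1719 in control MEFs. All 4 mesothelium markers were above the floor in 2n 2i and 4n 2i MEFs and 1 in control MEFs. Among 57 genes of cytosolic ribosomal proteins, a list chosen after values of these arrays had been seen, 36 (63.2%) were higher on the 4n 2i array than on both other MEF arrays, a share near the members' 61.6%. Whether either has a part in the members' values was not tested.

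**Figure D4:**
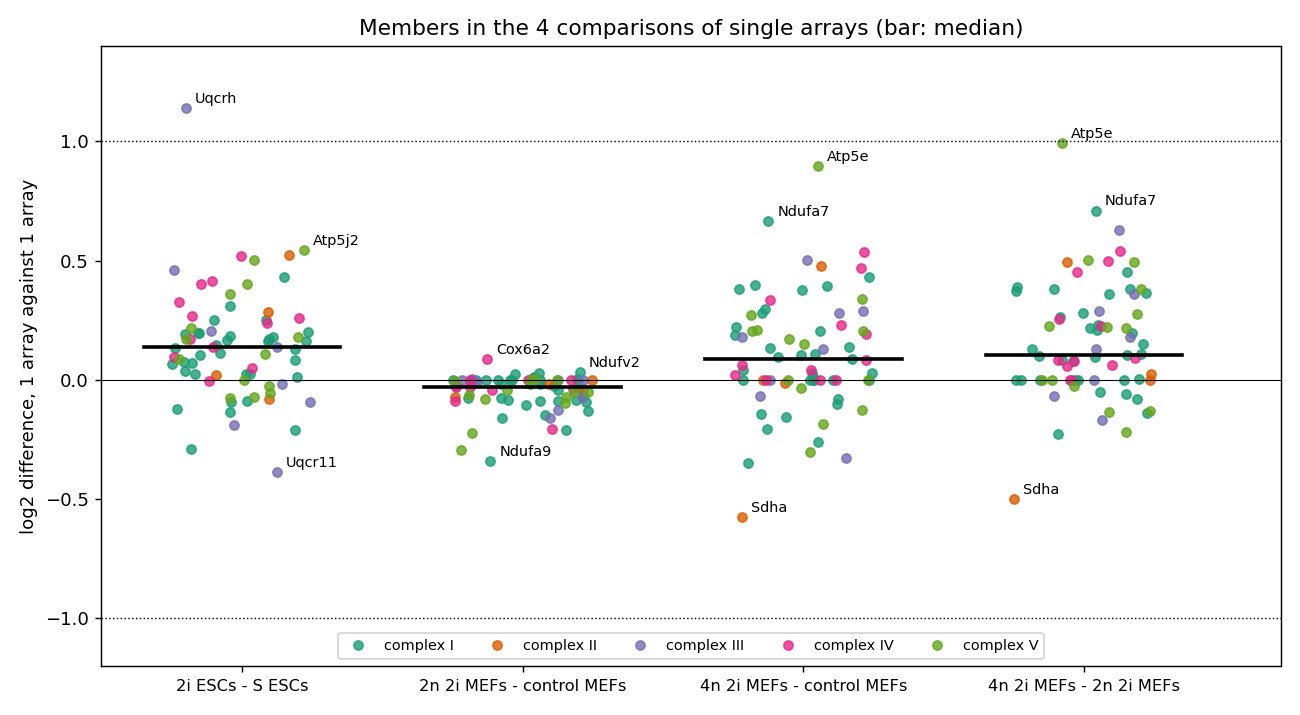
Log2 difference of each member in the 4 comparisons of 1 array with another, 1 point per gene coloured by complex, with a bar at the median and dotted lines at 2-fold. Only Uqcrh in 2i against S ESCs lies beyond a dotted line, Atp5e lies just inside it on the 4n 2i array, and the values of 2n 2i against control MEFs are packed between -0.34 and 0.09.

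The subunits were then set beside other genes of mitochondrial energy metabolism, in lists described by counts and medians for ESCs minus MEFs. The shares of all genes to read them against are 16.6% called higher, 16.2% called lower, 31.0% past the adjusted p as higher and 26.9% as lower. Of 17 tested regulators of mitochondrial transcription and biogenesis, 6 (35.3%, against 16.6% of all genes) were called higher and none lower, with a median of 0.68. Tfb1m (2.83-fold), Tfam (1.35 on the log2 scale), which packages and transcribes mitochondrial DNA, Tefm (1.22), Ssbp1 (1.18) and Pprc1 (1.07) were called. Esrrb, at least 4.32 on the log2 scale above the MEF floors, was called too and is also in the list of ES cell markers. Pprc1 lost its call without the S ESCs or the 4n 2i MEFs, and the list's count of calls as higher was 5 to 7 over the leave-outs.

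Tfam had intensities of 645 and 812 in 2i and S ESCs and of 290, 271 and 289 in 2n 2i, 4n 2i and control MEFs. These values did not overlap (limma adjusted p = 0.0018). Nrf1, a transcription factor of many nuclear respiratory genes, was higher by 0.96 (limma adjusted p = 0.0011) and Gabpa, another, by 0.97 (0.021), both under 2-fold. Gabpa lost its pass without either ESC array and was called without the 2n 2i MEFs (1.05) or the control MEFs (1.09). Tfb2m, a mitochondrial transcription factor, passed in the other direction (-0.88, limma adjusted p = 0.035). That pass held in 1 of the 5 leave-outs, the one of the 4n 2i MEFs, where Tfb2m was called lower (-1.03), and was lost in the other 4.

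Assembly factors showed mixed counts. Of 12 tested complex I assembly factors, 8 passed the adjusted p as higher (66.7%, against 31.0% of all genes) and none as lower (against 26.9%), with Foxred1 (1.16) called and a median of 0.56. That median was 0.43 with the 3 factors that are under the floor on all MEF arrays set to their bound against it. The 8 passes were 3 without the 2n 2i MEFs (23.3% of all genes) and 5 without the control MEFs (23.7%). Ndufaf6 and Tmem186, among both the 8 and the 3, are under the floor on all MEF arrays. They could therefore enter the fit only through the ESC arrays. Against the MEF floors their ESC means were higher by at least 0.29 and 0.48 on the log2 scale. The complex I subunits had 23.5% passing as higher and 8.82% as lower.

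Of 16 complex IV assembly factors, 5 passed as higher (31.2%, against 31.0% of all genes) and 3 as lower (18.8%, against 26.9%), with a median of 0.28. The heme-handling factor Coa7 (1.02) and the copper chaperone Sco1 (1.01) were called, and both lost their calls without the S ESCs and without the 4n 2i MEFs. Those that passed as higher were 2 without the 2i ESCs, those as lower 1 without the 2n 2i MEFs, and the median was 0.46 without the S ESCs and 0.16 with Cox17, which is under the MEF floors, at its bound. Of 10 factors for complexes II and III, 4 passed as higher (40.0%), a count of 0 without the 2n 2i or the control MEFs, and 2 as lower. Lyrm7, among the 4, is under the floor on all MEF arrays, with an ESC mean at least 0.01 above those floors. None of these 10 was called.

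Electron carriers and subunits outside the naming rule were few. Cyct, the testis form of cytochrome c, had intensities of 193 and 251 in 2i and S ESCs, and of 32.5 on each MEF array. Only the S ESC value was above its floor, by little, so the gene entered the fit through that array alone and its call as higher (limma adjusted p = 0.000436) supports no fold. The common form Cycs differed by 0.13 and did not pass. Cyc1, the cytochrome c1 subunit of complex III, passed at 0.67. Ndufab1, the acyl carrier subunit of complex I, passed at 0.36 with the same value on all 3 MEF arrays, and lost the pass without any 1 of them.

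Ndufa4l2, a gene known for its response to low oxygen, turned on 1 array. It did not pass with all arrays (1.25, limma adjusted p = 0.0925) and was called higher in ESCs without the 4n 2i MEFs (1.67, 0.0139). Its level on the 4n 2i array was higher by 1.33 than in control and by 1.22 than in 2n 2i MEFs. Of the 13 subunits encoded by mitochondrial DNA, ND3 alone had a probe set of its own, with a difference of -0.71 that did not pass (limma adjusted p = 0.0637). The difference was -0.35 without the 2i ESCs and -1.08 without the S ESCs, each in a fit with 1 ESC array.

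Of 77 mitochondrial ribosomal protein genes, 34 passed the adjusted p as higher (44.2%, against 31.0% of all genes) and 10 as lower (13.0%, against 26.9%), with a median of 0.26. Mrps5 (1.39), Mrps31 (1.29), Mrpl15 and Mrpl49 were called higher and Mrps6 (-1.31) and Mrps21 (-1.08) lower. The call of Mrps6 was lost without either ESC array and that of Mrps21 without the S ESCs, the 2n 2i MEFs or the control MEFs. The genes that passed as lower numbered 2 without the 2n 2i or the control MEFs. Mrpl44, which passed as higher, is under the floor on all MEF arrays, with an ESC mean at least 0.59 above those floors.

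Of 23 protein import genes, 10 passed as higher (43.5%, against 31.0% of all genes), a count of 6 without the 2n 2i MEFs. None passed as lower with all arrays (against 26.9%), but 1 did without the 4n 2i MEFs. Passes as lower are not counted here for the fits with 1 ESC array, in which some genes moved further. Without the S ESCs the difference was -1.64 for Timm21, -0.46 for Tomm40l and 0.30 for Timm44. Timm8a2, at least 4.57-fold above the MEF floors, and Timm8a1 (1.39 on the log2 scale), small chaperones of the intermembrane space, were called. Timm8a1 lost the call without either ESC array.

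Of 19 genes of pyruvate dehydrogenase and the citric acid cycle, 8 passed as higher (42.1%, against 31.0% of all genes) and 1 as lower (5.26%, against 26.9%). The 8 were 4 without either ESC array. The median of 0.31 was 0.12 without the 2i ESCs and 0.13 without the 4n 2i MEFs. Idh2 (1.41) and Suclg2 (1.06) were called, and both calls were lost without either ESC array. Without the 4n 2i MEFs 1 gene was called, and without the 2n 2i or the control MEFs 4 were. Of 12 coenzyme Q genes, 2 passed in each direction (16.7%), with Coq8a called at no less than 2.19-fold above the MEF floors. Over the MEF arrays left out, 1 passed as higher and 1 to 4 as lower.

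Of 13 glycolysis genes, 7 passed as higher in ESCs (53.8%, against 31.0% of all genes) and none as lower (against 26.9%), with a median of 0.59. Pfkp (2.54), Hk2 (2.35) and Pdk1 (2.28) were the largest of 5 called (38.5%, against 16.6% of all genes). The list is wider than glycolytic enzymes: it holds the glucose transporter Slc2a1 and Pdk1, a kinase of pyruvate dehydrogenase, both called. Gapdh, Eno1 and Gpi1 had no probe set of their own and are not in it. Without either ESC array 1 of the 5, Pfkp, kept its call, and the 7 passes were then 3. The medians of glycolysis, biogenesis and complex I assembly genes were the furthest above the members' median of 0.16. Other lists lay above it too, from protein import (0.23) to nuclear subunits outside the naming rule (0.36). Complex V assembly (0.16) was close to it. Complex II and III assembly (0.13), the list of cytochrome c and carriers (0.13) and ND3 (-0.71) lay below. On the 4n 2i array the citric acid cycle list had a median of -0.32 against control MEFs, with 16 of 19 genes lower. The glycolysis list had -0.32, with 10 of 13 lower, while the respiratory chain members had 0.09. Of all genes 51.5% were lower in this comparison, with a median of -0.01.

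**Figure D5:**
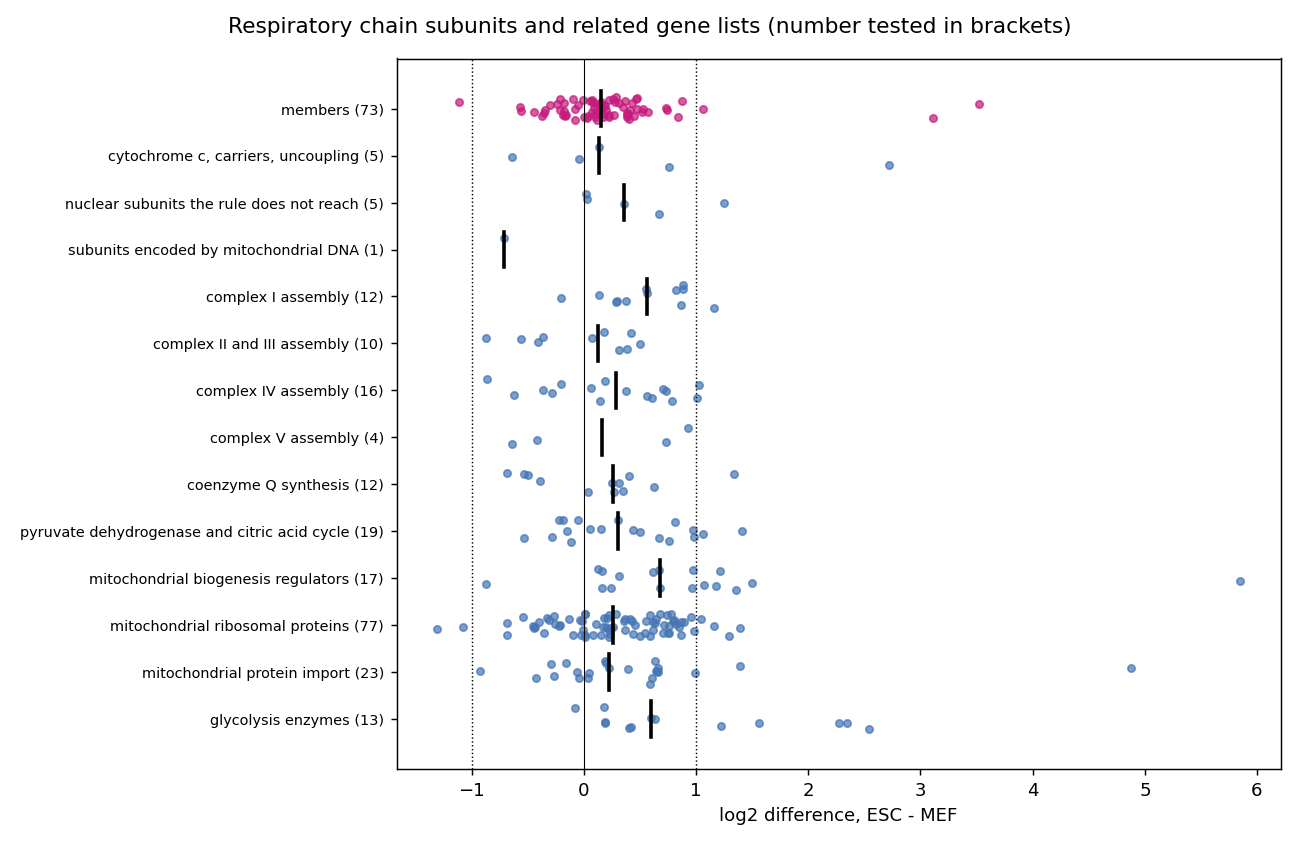
Log2 difference, ESCs minus MEFs, of each tested gene in the members and in 13 related lists, 1 point per gene, with a bar at the median and dotted lines at 2-fold. The members cluster near 0.16 with Cox6b2 and Cox7a1 far to the right. The medians of biogenesis regulators (0.68), the glycolysis list (0.59) and complex I assembly factors (0.56) lie furthest to the right. Several other lists also lie to the right of the members' median.

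Promoters of the members were searched for short motifs of factors known to act on respiratory genes, in windows from 250 bases before to 50 after each RefSeq start, on either strand. The core of NRF1, CGCNTGCGC, was in 20 of 68 windows (29.4%), against 6.25% of all windows and 8.58% of those of protein-coding genes. The ETS core CCGGAAG, which GABP can bind, was in 23.5% (8.86% of all and 11.6% of protein-coding) and the YY1 core AANATGGCG in 14.7% (2.38% and 3.12%). The ERR element TNAAGGTCA was in 2.94% (1.28% and 1.03%) and the SP1 box GGGCGG in 36.8% (35.7% and 46.2%). The motifs differ in base content, and the members' windows were richer in CpG than all windows, as given above.

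An NRF1 match is shown for Ndufs6 and Atp5c1, which passed the adjusted p as higher in ESCs, and for Sdha and Cox6a1, which did not pass. The windows of Sdha and Cox6a1 hold 3 and 2 matches, of which the furthest upstream is shown. Each line is upstream of the start on the strand of the gene (GRCm38.p6), with the match in capitals.
Ndufs6 (chr13:73328483-73328517, - strand): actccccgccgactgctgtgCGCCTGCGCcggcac
Atp5c1 (chr2:10080433-10080469, - strand): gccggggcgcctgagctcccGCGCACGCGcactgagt
Sdha (chr13:74350310-74350358, - strand): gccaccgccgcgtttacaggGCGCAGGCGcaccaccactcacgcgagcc
Cox6a1 (chr5:115349092-115349140, - strand): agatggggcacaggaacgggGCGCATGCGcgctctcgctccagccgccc
This match was in the window of 4 of the 15 members with a window that passed as higher in ESCs (Atp5c1, Ndufa6, Ndufs6 and Uqcrc1), of 0 of 2 that passed as lower and of 15 of the 46 others. A match is a run of letters and no measure of binding.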

How the data were processed

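Per the labels' protocols, total RNA of 5 samples was fragmented and biotinylated for arrays. The authors deposited linear intensity values for 28853 probe sets on 5 arrays. Their background correction, summarisation and normalization are not given in the sources used here. Arrays have no sequencing depth, and their number limits the precision.

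All analysis used log2(value + 1). By the platform annotation, 21789 probe sets had 1 gene, 1621 several and 5443 none. The 96 probe sets of members gave 76 genes, all found in RefSeq (GRCm38.p6). For 13 members the brightest of several probe sets was used, and the sign of ESCs minus MEFs differed between probe sets for Cox5b and Uqcrb. Genes were compared where the brighter array (in the fit, any array) reached its floor.

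ESC and MEF arrays were compared with limma 3.58.1 (lmFit, eBayes, 3 residual degrees of freedom). The same step was run on simulated data with independent noise on each array. Such data hold no values shared between MEF arrays, so they cannot show whether those make the p-values too small. For genes under the floor on every array of a cell type, the mean of the other cell type was set against those floors, as a lower bound added after the data were seen. Single arrays were compared by log2 difference with no test. Isoform ratios used exact permutation in scipy 1.17.1. Genes named were all members that differed at least 2-fold, extremes of each complex, isoform pairs, X-linked members, and from each related list up to 3 called genes or genes 2-fold apart. Other genes of those lists (Nrf1, Gabpa, Tfb2m, Cycs, Cyc1, Ndufab1, ND3 and those past 3 called) were added after their values were seen. The members and lists were chosen with earlier results of these data known. Alternatives varied the floor, normalization, probe set rule, pseudocount, prior, thresholds and arrays used.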

Additional observations from a re-analysis of the deposited data

Results flagged for a closer look

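The members' median difference from control MEFs was -0.028 in 2n 2i MEFs and 0.086 in 4n 2i MEFs on the log2 scale. It is listed because the signs are opposite. The difference was not tested, each value comes from 1 array, and both share the control array. In 2n 2i MEFs 46 of 72 members were lower than in control MEFs, and in 4n 2i MEFs 45 of 72 were higher. Of all genes, 34.6% were lower in 2n 2i MEFs and 36.1% higher in 4n 2i MEFs.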

How the results depend on the processing

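Of 117 alternative values of the counts, medians and motif counts, 100 kept their direction and size class. A count was taken as kept within 1.5-fold. A median was taken as kept if its sign held and it moved by less than 0.13, the members' typical SD within a cell type. That limit is close to the size of the medians themselves, so a kept median can still have moved by much of its size. With no fold threshold, the members higher in ESCs numbered 17 and those lower 4. None (0) was called lower at 3-fold or above a floor set at the 75th percentile. Leaving out 1 array gave 2 to 3 members called higher and 0 to 1 called lower. The counts by adjusted p alone, whose alternatives were added after the data were seen, ranged from 7 to 16 higher and from 2 to 8 lower over the arrays left out, and 10 were higher without genes identical on all MEF arrays, which are then not tested. Passes lost in a fit with 1 ESC array are given above as lost. Genes that passed only in such a fit are given, if at all, by their difference. At 1.5-fold, 2 members differed between 4n 2i and control MEFs and 3 between 4n 2i and 2n 2i MEFs. With quantile normalization 1 member was 2-fold apart between 4n 2i and 2n 2i MEFs, and the ratio of Cox8b to Cox8a turned to -0.016. In the 250 upstream bases alone the YY1 core was in 3 windows and the ERR element in 1. Where no construction of an alternative shows the cause, it was not tested. The members' medians kept their sign in all settings run, and that of ESCs minus MEFs ranged from 0.087 to 0.243 over the arrays left out. No paired analysis was possible because each group had 1 array.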
